A study of Mus musculus with 6 samples.

Results

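Immediate early genes other than the Egr family were followed in mouse cerebral cortex lacking, by its label, both Egr1 and Egr3. The list holds 42 genes that neurons and other cells switch on quickly after stimulation. Every probe set to which the platform's annotation gives the symbol of 1 of them was taken, 83 of the 45037 probe sets on the array besides controls, and all 42 genes, of 18193 named on the array, had at least 1. Total RNA of 3 arrays was labelled Egr1/Egr3 double knockout and that of 3 arrays wild type. All 6 came from cerebral cortex, and the labels give no strain, age, sex, stimulation, allele design or pooling. The comparison asks whether other activity-induced genes, Arc in particular, are at a different level where both Egr factors were targeted. Values of a group are given in the order of replicates 1, 2 and 3.

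Immediate early genes are transcribed within minutes of synaptic activity, growth factors or stress, without the need for new proteins. Calcium entry and the MAP kinase cascade act on transcription factors that are already present, among them CREB, the serum response factor SRF with its partner ELK1, and MEF2. Some products are transcription factors (the AP-1, Nr4a and Klf families, Npas4) that control a later wave of genes. Others act directly on the synapse (Arc, Homer1) or switch the signalling off again, as the dual specificity phosphatases do. In cortex their levels are known to follow the animal's recent sensory and behavioural activity. Egr1 and Egr3 belong to this class and bind a GC-rich element in DNA.

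The targeted genes went only in part with the labels. Egr3 read 339, 369.9 and 507 signal units in the arrays labelled double knockout, against 1189, 2669.6 and 924 in wild type (log2 -1.80, SE 0.32, limma adjusted p = 0.0361). The Egr3 call was lost in 8 of 18 alternatives, including the fits without wild type replicate 1 and without any 1 array labelled double knockout (adjusted p = 0.0787 to 0.157). Egr1 read 2116, 2647 and 2657 under the double knockout label and 1247, 2054 and 1429.6 in wild type (log2 0.67, limma adjusted p = 0.108), so the Egr1 signal went against the label. The arrays are hence named by their label, and where the probes lie relative to the deleted parts is not given in the sources used here. Array medians lay between 36.2 and 39.5, and log2 signals correlated at r = 0.980 to 0.983 within groups and 0.973 to 0.980 between them. Double knockout replicate 2 had an Xist signal of 3140 against at most 42.5 on the other arrays, so its RNA came from a female. In wild type replicate 1 the spiked hybridisation controls stood at 0.342 to 0.497 times the median over the remaining arrays. In wild type replicate 3 they stood the other way, at 1.26 to 1.51 times the median over the arrays besides it. The 3' to 5' ratio of the Gapdh control did not overlap, at 0.922, 0.950 and 0.881 under the double knockout label and 0.842, 0.806 and 0.873 in wild type. That of the Actb control overlapped, at 1.89, 1.68 and 1.75 under the double knockout label and 1.58, 1.67 and 1.95 in wild type. The part of any of these in the results was not tested. Nothing in the labels says that the arrays of a group are separate animals, so the p-values speak only for the spread between these arrays.

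Promoters of several members carry elements bound by the activity-regulated factors. The windows searched run from 250 bases before to 50 bases after a gene's start (RefSeq, GRCm38.p6), and 34 of the 42 members had at least 1. Both strands were searched for motifs chosen with the results known. The cAMP response element TGACGTCA, bound by CREB, lay in the windows of 4 members (Btg2, Plk2, Maff and Dusp1), 11.8% of the 34, against 2.03% of all 27025 genes with a window. Its core TGACG, which each full element also holds, lay in 21 members (61.8% against 23.0%). The CArG box, bound by SRF, lay in Srf and Dusp5 (5.88% against 1.81%). GCGGGGGCG, a form of the Egr element, lay in Klf4, Fosl2, Fosb, Klf2, Nr4a1 and Srf (17.6% against 3.31%), and the form GCGTGGGCG in Maff alone (2.94% against 0.707%). The AP-1 site TGACTCA lay in 0 of the 34 (5.95% of all genes). Windows were not matched for base composition, and a match is a stretch of letters, not a shown binding site. The stretches below are those of members described in the following paragraphs, in lower case with the motif in capitals. Dusp1 and Plk2 carry the full cAMP response element, Homer1 its core 3 times, Fosl2, Klf2 and Nr4a1 the Egr element, and Srf a pair of CArG boxes. The Srf stretch also holds GCGGGGGCG near its beginning, left in lower case.
Dusp1, chr17:26508572-26508651, minus strand, bases -179 to -100 from the start: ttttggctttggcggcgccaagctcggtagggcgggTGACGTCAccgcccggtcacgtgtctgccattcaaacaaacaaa
Plk2, chr13:110394946-110395025, plus strand, bases -98 to -19 from the start: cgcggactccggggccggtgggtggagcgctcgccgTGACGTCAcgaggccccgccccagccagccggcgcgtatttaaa
Homer1, chr13:93303677-93303756, plus strand, bases -80 to -1 from the start: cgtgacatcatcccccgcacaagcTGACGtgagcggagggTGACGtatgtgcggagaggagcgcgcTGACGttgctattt
Fosl2, chr5:32136357-32136436, plus strand, bases -115 to -36 from the start: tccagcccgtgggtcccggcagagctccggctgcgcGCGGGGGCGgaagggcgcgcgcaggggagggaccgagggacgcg
Klf2, chr8:72318827-72318906, plus strand, bases -235 to -156 from the start: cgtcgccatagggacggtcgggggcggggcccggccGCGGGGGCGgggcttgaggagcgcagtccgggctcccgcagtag
Nr4a1, chr15:101266750-101266829, plus strand, bases -96 to -17 from the start: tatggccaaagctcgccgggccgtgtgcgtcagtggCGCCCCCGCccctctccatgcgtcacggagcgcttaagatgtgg
Srf, chr17:46556190-46556269, minus strand, bases -107 to -28 from the start: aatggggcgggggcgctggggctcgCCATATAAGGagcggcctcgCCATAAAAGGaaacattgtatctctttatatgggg

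None of the immediate early genes passed the test of the double knockout label against wild type. The test was limma on log2(signal + 16) over the 22518 probe sets whose mean exceeded the middle value of the whole array, with p-values adjusted over all of them by the Benjamini-Hochberg method and a threshold of 0.05. Of the 42 members 35 had a tested probe set, each gene being represented by its brightest. The count called on any tested probe set was 0 of 35 genes. Hence 0 of their 55 tested probe sets passed, where 1.02% of all tested probe sets did, 0.426% higher and 0.591% lower. Below an unadjusted p of 0.05 were 10 of the 35 (28.6%), 4 higher and 6 lower, against 17.5% of the 11053 tested genes, 8.66% higher and 8.84% lower. The groups did not overlap for 10 of the 35, again 4 higher and 6 lower, where 23.3% of tested genes did not overlap, 12.2% higher and 11.1% lower. Of the 35 genes 18 were lower (51.4%), as were 48.5% of all tested genes. The median difference was -0.0037 on the log2 scale, beside 0.0083 over all tested genes. The median of the absolute differences was 0.32 for the members and 0.15 over all tested genes. The 95% interval of the difference held 0 for 25 members and lay within 1 log2 unit on both sides for 23. With a threshold of 0.1, passed by 2.6% of all tested probe sets, Jund, Ptgs2 and Klf2 were called. Ptgs2 (through wild type) and Trib1 and Ccn1 (through the double knockout label) lay above the filter in 1 group only, so these counts are a description of the tested genes and not of all 42.

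**Figure D1:**
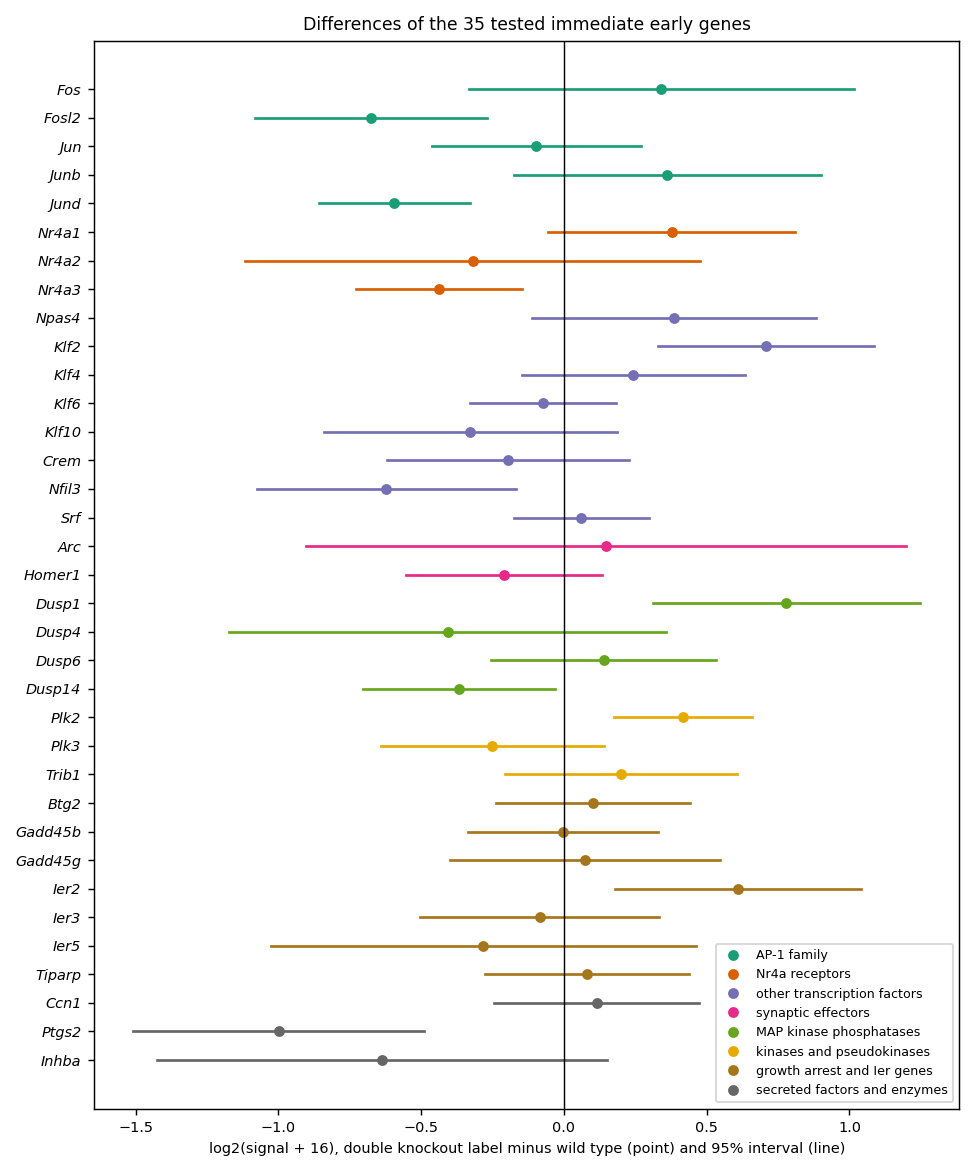
Log2 difference (double knockout label minus wild type) of each tested immediate early gene on its brightest tested probe set, with the 95% interval from limma and a colour for each role. Intervals of 25 of the 35 genes cross 0. Ptgs2 lies farthest to the left (-0.998) and Dusp1 farthest to the right (0.78).

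The AP-1 family holds the Fos and Jun proteins, which pair through leucine zippers and bind DNA as dimers. Of its 7 genes 5 were tested, 2 higher and 3 lower, and none passed. Jund, a Jun protein that cells hold at a steady level and the member nearest to the threshold, read 715, 594 and 619 under the double knockout label and 1008, 856 and 1077 in wild type. Every array labelled double knockout stood below every wild type array. The means were 643 ± 63.9 and 980.4 ± 113 (SD, n = 3 each), a ratio of 0.66, and the log2 difference was -0.59 (SE 0.12, 95% interval -0.86 to -0.33, limma adjusted p = 0.0504). It passed in 5 of 18 alternatives, among them the fit without wild type replicate 2 (-0.69, limma adjusted p = 0.0231), in a range of 0.0231 to 0.330. Fosl2, a Fos-related protein whose promoter stretch is shown above, read 102, 114 and 100.3 in the arrays labelled double knockout, against 132, 231 and 183 in wild type. The arrays labelled double knockout lay close together and below all wild type arrays, which spread widely. Their log2 difference was -0.67 (95% interval -1.08 to -0.27, limma adjusted p = 0.118), and a second, untested probe set read 21.2, 26.0 and 12.6 in the arrays labelled double knockout, against 28.3, 28.3 and 35.9 in wild type.

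Fos, the most widely used marker of recent neuronal activity, read 169.9, 263 and 472 under the double knockout label and 163, 276 and 221 in wild type. The groups overlapped, and double knockout replicate 3 alone stood above all other arrays. The log2 difference of 0.34 had an interval of -0.33 to 1.02 (limma adjusted p = 0.62) and was -0.025 without that array. Junb, a Jun protein with weak activating power, read 97.7, 114 and 159.6 under the double knockout label and 89.1, 62.1 and 133 in wild type, with double knockout replicate 3 again highest (log2 0.36, limma adjusted p = 0.486). The log2 differences of Jun itself were -0.10 and 0.0028 on its 2 tested probe sets. Its intervals were -0.46 to 0.27 and -0.31 to 0.32.

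The Nr4a genes encode nuclear receptors that act without a known hormone and are induced as fast as Fos. Nr4a1 (Nur77) read 299, 399.9 and 569 under the double knockout label and 306, 287 and 342 in wild type. Double knockout replicates 2 and 3 stood above all wild type arrays, while replicate 1 lay among them (log2 0.38, SE 0.19, limma adjusted p = 0.367). Nr4a3 (Nor1) ran the other way, at 212, 205 and 199 under the double knockout label and 246, 276 and 335 in wild type. Its groups did not overlap, and the log2 difference was -0.44 (95% interval -0.73 to -0.15, limma adjusted p = 0.143). The difference between these relatives was not tested.

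Nr4a2 (Nurr1), which in cortex marks deep-layer and subplate neurons besides being induced, varied with 1 array. Its brightest probe set read 837, 327 and 1019 under the double knockout label and 719, 664 and 1159 in wild type. Double knockout replicate 2, the array of female RNA, was lowest on all 4 tested probe sets. On the next brightest it read 218 against 329 to 728 on the other arrays. The log2 difference was -0.32 (95% interval -1.12 to 0.48, limma adjusted p = 0.705), and it turned to 0.17 without that array. The differences on the other 3 tested probe sets were -0.25, -0.50 and -0.28, and none passed.

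Among the 10 other transcription factors 8 were tested, 4 higher and 4 lower. Klf2, a zinc finger factor best known from blood vessel linings and lymphocytes and also induced in neurons, read 82.5, 92.9 and 120.1 under the double knockout label and 58.1, 45.3 and 57.8 in wild type. All arrays labelled double knockout stood above all wild type arrays, with means of 98.5 ± 19.4 and 53.8 ± 7.30 (SD, n = 3 each) and a ratio of 1.83. The log2 difference was 0.71 (SE 0.17, 95% interval 0.33 to 1.09, limma adjusted p = 0.0882). Of 6 endothelial and pericyte markers none passed, 1 being higher and 5 lower (median log2 -0.091). Flt1, an endothelial receptor, read 109, 97.1 and 83.1 under the double knockout label and 74.8, 74.5 and 73.3 in wild type, without overlap. Rgs5, a pericyte marker, read 585, 726 and 546 under the double knockout label and 749, 1069 and 1108 in wild type, without overlap the other way. The signals of all 6 summed to 1080 to 1348 under the double knockout label and 1429 to 1789 in wild type, a sum in which Rgs5 is the brightest. Their part in the Klf2 level was not tested. Bulk tissue does not separate fewer cells of a type from less RNA per cell.

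Klf4, a close relative, differed by 0.24 (limma adjusted p = 0.525). Klf6 had 4 tested probe sets whose differences ran from -0.074 on the brightest to 0.39 on the dimmest, and Klf10, induced by TGF-beta, differed by -0.33. Nfil3, a repressor of the bZIP class, read 40.1, 52.7 and 57.4 in the arrays labelled double knockout, against 78.5, 117 and 65.9 in wild type. The groups did not overlap and wild type replicate 2 stood highest (log2 -0.62, SE 0.20, limma adjusted p = 0.18). Crem, a relative of CREB, was also highest in that array, at 175 against 99.0 to 112 on the others (log2 -0.20, limma adjusted p = 0.655).

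Npas4 occurs chiefly in neurons and answers to calcium entry rather than to growth factors. It read 52.3, 93.1 and 81.1 under the double knockout label and 46.5, 73.2 and 42.1 in wild type. The groups overlapped (log2 0.39, 95% interval -0.11 to 0.88, limma adjusted p = 0.42). Srf, which encodes the factor that drives many members and whose promoter holds its own CArG boxes, was the steadiest member. Its brightest probe set read 294, 288 and 330.4 under the double knockout label and 295, 289 and 287 in wild type, a log2 difference of 0.062 with a narrow interval of -0.18 to 0.30 (limma adjusted p = 0.817). A dimmer Srf probe set read 41.8, 50.0 and 50.7 under the double knockout label and 68.3, 68.8 and 57.0 in wild type, without overlap (log2 -0.35, limma adjusted p = 0.296), so the probe sets of the gene differ in direction.

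Arc and Homer1 act at the postsynapse, Arc in the removal of AMPA receptors and Homer1 as a scaffold for metabotropic glutamate receptors. Arc read 45.9, 87.0 and 192 under the double knockout label and 33.2, 114 and 136 in wild type. Each group held arrays of low and of high signal, and the lowest and highest of all 6 were found in wild type replicate 1 and in double knockout replicate 3. On the log2 scale the difference was 0.15 (SE 0.47, limma adjusted p = 0.913). Its interval of -0.90 to 1.20 takes in a 2-fold rise and stops just short of a 2-fold fall. The direction turned without wild type replicate 1 (-0.36) and without double knockout replicate 3 (-0.31).

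Homer1 had 5 tested probe sets, all lower in the arrays labelled double knockout. The brightest read 1371, 1502 and 1396 in them, against 1332, 2134 and 1570.0 in wild type (log2 -0.21, 95% interval -0.55 to 0.13, limma adjusted p = 0.535). Wild type replicate 2 was the highest array on each of the 5. The difference was largest on the next brightest probe set, described here after its values were seen, which read 468, 311 and 424 in the arrays labelled double knockout, against 775, 2550.1 and 532 in wild type. Its groups did not overlap, and wild type replicate 2 stood far above the other wild type arrays (log2 -1.33, SE 0.45, limma adjusted p = 0.187). Without that array the difference was -0.68 on this probe set and -0.024 on the brightest. The gene makes a short, activity-induced form, Homer1a, and longer constitutive ones, and which form a probe set reads is not given in the sources used here.

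**Figure D2:**
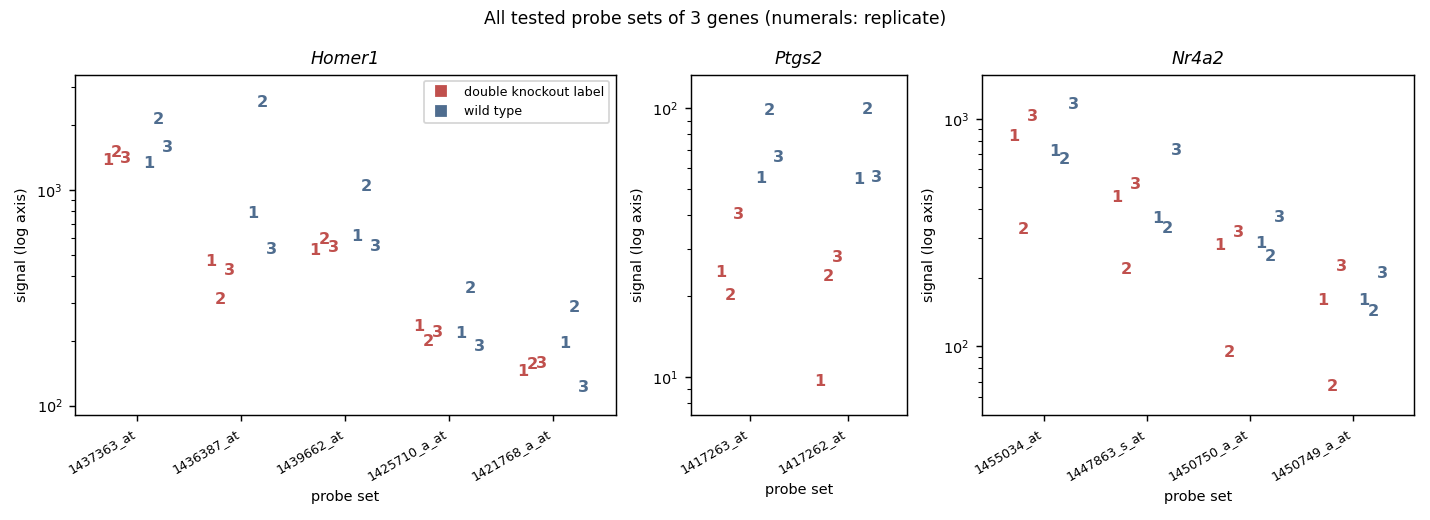
Signal (log axis) of every tested probe set of Homer1, Ptgs2 and Nr4a2 in each array, with the numeral giving the replicate, red for the double knockout label and blue for wild type. Wild type replicate 2 is highest on all 5 Homer1 and both Ptgs2 probe sets, and double knockout replicate 2 is lowest on all 4 Nr4a2 probe sets.

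The dual specificity phosphatases end MAP kinase signals, some in the nucleus and others in the cytoplasm. Of 5 genes 4 were tested, 2 higher and 2 lower. Dusp1, a nuclear phosphatase whose promoter stretch above holds TGACGTCA, read 453, 514 and 784 in the arrays labelled double knockout, against 324, 256 and 409.7 in wild type. All arrays labelled double knockout stood above all wild type arrays, with a narrow gap between double knockout replicate 1 and wild type replicate 3. On the log2 scale the difference was 0.78 (SE 0.21, 95% interval 0.31 to 1.25, limma adjusted p = 0.118). Dusp6, which is cytoplasmic and specific for ERK, read 465, 614 and 826 under the double knockout label and 530.3, 609 and 543 in wild type, with overlap (log2 0.14, limma adjusted p = 0.74).

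Dusp14 read 400.4, 391 and 458 under the double knockout label and 594, 632 and 421 in wild type, where replicates 1 and 2 stood above all other arrays. Their log2 difference was -0.37 (95% interval -0.70 to -0.033, limma adjusted p = 0.26). Dusp4, a nuclear phosphatase like Dusp1, read 15.9, 39.2 and 70.3 in the arrays labelled double knockout, against 34.2, 78.8 and 58.4 in wild type, with wide overlap (log2 -0.41, 95% interval -1.17 to 0.36, limma adjusted p = 0.6).

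Of the 5 kinases and pseudokinases 3 were tested. Plk2, a polo-like kinase that weakens strongly driven synapses, read 1763, 1772 and 1478 under the double knockout label and 1283, 1155 and 1298 in wild type. The groups did not overlap and both lay close together, with means of 1671 ± 167 and 1245 ± 78.9 (SD, n = 3 each) and a ratio of 1.34. The log2 difference was 0.42 (SE 0.11, 95% interval 0.18 to 0.66, limma adjusted p = 0.108). Its relative Plk3 read 55.3, 35.3 and 56.3 in the arrays labelled double knockout, against 63.3, 58.5 and 59.4 in wild type (log2 -0.25, limma adjusted p = 0.51), and the pseudokinase Trib1 differed by 0.20 (limma adjusted p = 0.632).

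All 7 growth arrest and Ier genes were tested, 4 higher and 3 lower. Ier2, a small nuclear protein of the early response, read 86.7, 80.9 and 126 under the double knockout label and 45.0, 62.4 and 67.3 in wild type. The groups did not overlap and double knockout replicate 3 was highest (log2 0.61, SE 0.19, 95% interval 0.18 to 1.04, limma adjusted p = 0.167). Ier5 read 371, 275 and 477 in the arrays labelled double knockout, against 433, 801 and 256 in wild type, whose replicates 2 and 3 were the highest and the lowest of all arrays. Its log2 difference was -0.28 (95% interval -1.03 to 0.46, limma adjusted p = 0.72) and turned to 0.13 without wild type replicate 2. The other 5 differed by -0.084 (Ier3) to 0.10 (Btg2) on their brightest probe sets. Gadd45b, which takes part in DNA repair and demethylation, lay at -0.0037, its relative Gadd45g at 0.073 and the ADP-ribosyl transferase Tiparp at 0.08.

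Ptgs2 and Inhba are the members whose products act as enzymes for signals or as signals outside the cell, with the matrix protein Ccn1. Ptgs2 (cyclooxygenase 2), which makes prostaglandins and in cortex is induced in excitatory neurons, had the largest difference of any member on the brightest probe sets. Its brightest probe set read 24.6, 20.1 and 40.3 in the arrays labelled double knockout, against 54.8, 98.0 and 65.5 in wild type. The second read 9.63, 23.7 and 27.9 in the arrays labelled double knockout, against 54.2, 99.1 and 55.4 in wild type. On both probe sets every array labelled double knockout stood below every wild type array. The log2 differences were -0.998 (SE 0.23, 95% interval -1.51 to -0.49) and -1.23 (SE 0.26, 95% interval -1.81 to -0.66). Their limma adjusted p-values were 0.076 and 0.058. The mean of the arrays labelled double knockout lay below the filter, a signal of 36.6, on both probe sets, and that of wild type above it. The signal is low, and over the alternatives the difference of the brightest probe set ran from -1.35 to -0.56.

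Inhba, a subunit of activin, read 26.7, 64.8 and 58.1 under the double knockout label and 68.4, 159 and 48.8 in wild type, with wild type replicate 2 far above the rest. The groups overlapped (log2 -0.64, 95% interval -1.42 to 0.15, limma adjusted p = 0.403). Ccn1 had 1 tested probe set of 4, with a log2 difference of 0.11 (limma adjusted p = 0.77). Its wild type mean lay below the filter, as did that of Trib1.

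**Figure D3:**
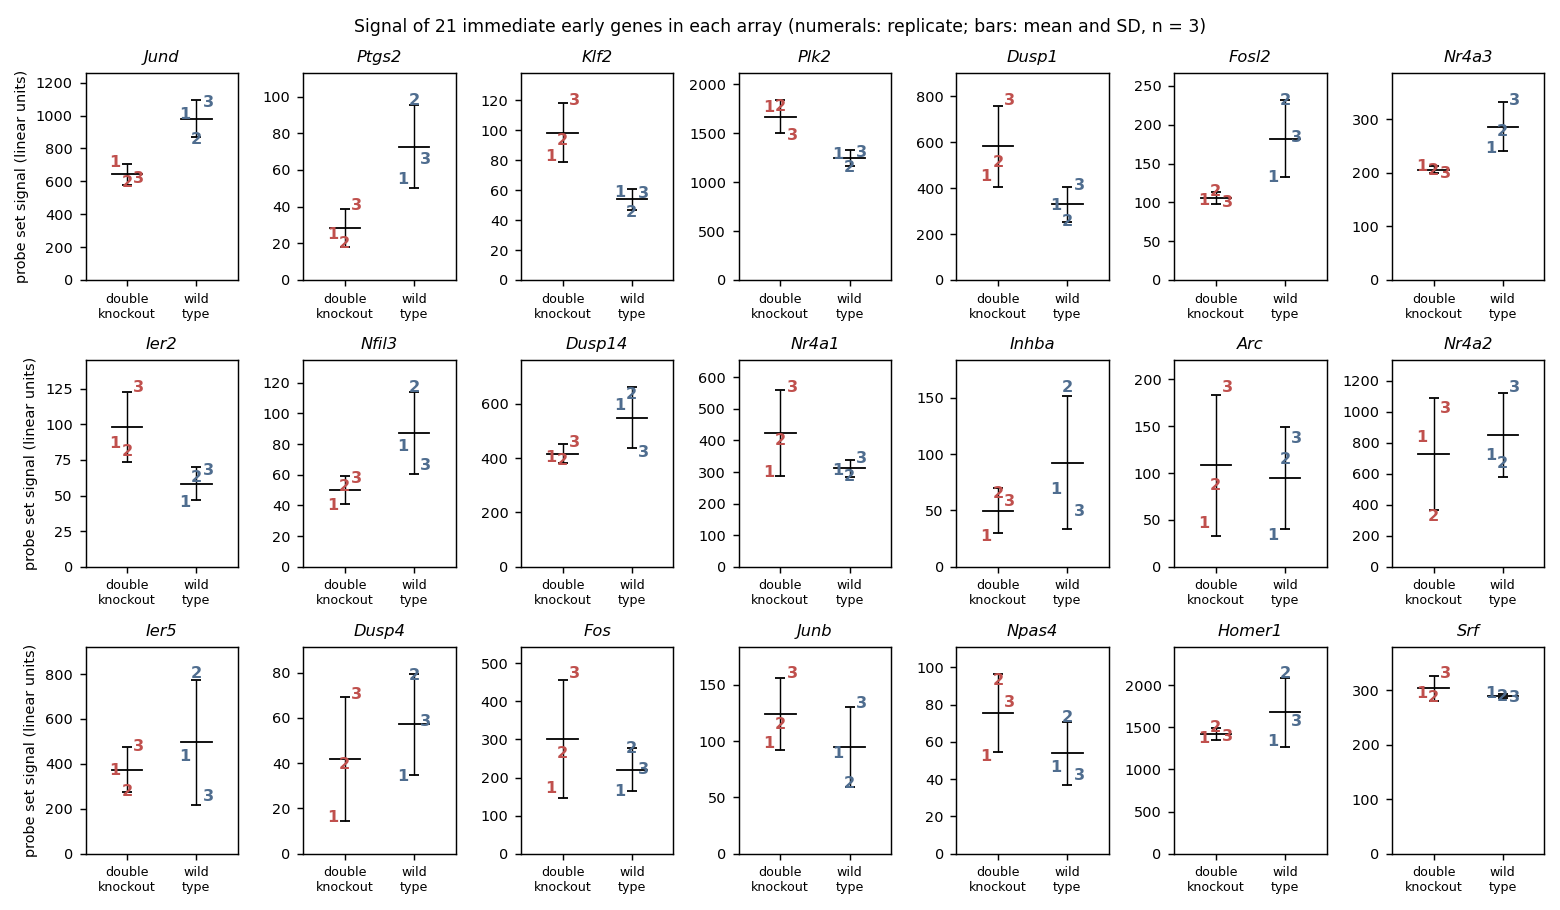
Linear probe set signal of 21 immediate early genes, those with the smallest p-values, the largest differences or the widest within-group spread and 7 others of which some are also among these. Numerals are replicates, the horizontal line the mean and the bar the SD of 3 arrays. Jund, Ptgs2, Klf2, Plk2, Dusp1, Fosl2, Nr4a3, Ier2 and Nfil3 show no overlap between groups, whereas Arc, Fos and Nr4a2 spread as widely within a group as between them.

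The other 7 members, Fosb, Fosl1, Atf3, Maff, Dusp5, Sik1 and Pim1, had no probe set above the filter and were not tested. Fosb, whose truncated product accumulates with repeated stimulation, read 22.5, 28.8 and 19.4 under the double knockout label and 32.0, 43.5 and 24.7 in wild type. Dusp5, a nuclear ERK phosphatase with a CArG box in its promoter window, lay between 27.4 and 51.4 under the double knockout label and between 7.27 and 35.2 in wild type. Sik1, a kinase that restrains CREB coactivators, lay between 13.6 and 38.7 under the double knockout label and between 5.57 and 16.98 in wild type on the brighter of its 2 probe sets. Pim1, a survival kinase, read 25.2, 20.3 and 43.8 under the double knockout label and 35.7, 43.4 and 51.6 in wild type on the brighter of its 2. The groups of all 4 genes overlapped. Atf3, a stress-induced bZIP factor, lay between 3.11 and 14.3 under the double knockout label and between 1.47 and 19.2 in wild type. Maff, a small Maf protein, lay between 3.64 and 7.198 under the double knockout label and between 2.89 and 16.3 in wild type. Fosl1, a further Fos relative, read 14.2, 4.32 and 6.63 under the double knockout label and 4.06, 0.85 and 1.27 in wild type on the probe set without overlap, and its other probe set overlapped. At such signals the array gives no firm level.

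Where several probe sets of a gene were tested, in 11 genes, they ran in 1 direction for 5 genes (Crem, Homer1, Ier5, Nr4a2 and Ptgs2). For Jun, Klf6, Srf, Btg2, Gadd45b and Tiparp they did not, with differences between -0.35 and 0.39 on the log2 scale.

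Most members had a wider spread within groups than the median of probe sets of like brightness. The within-group SD on the log2 scale had a median of 0.27 over the 35 members and of 0.16 over all tested genes. Against the 501 probe sets nearest in brightness, 25 of the 35 lay above the median and 11 above the 90th percentile. The widest were Arc (SD 0.88, at the 99.6th percentile), Nr4a2 (0.67, 99.6th), Inhba (0.63, 98.6th), Ier5 (0.62, 98.8th), Dusp4 (0.60, 99.0th) and Fos (0.55, 98.0th). Srf (0.074, 5.39th percentile) and Ccn1 (0.12, 8.98th) lay at the other end. These percentiles are a description with no test, since genes of the same arrays are not independent.

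**Figure D4:**
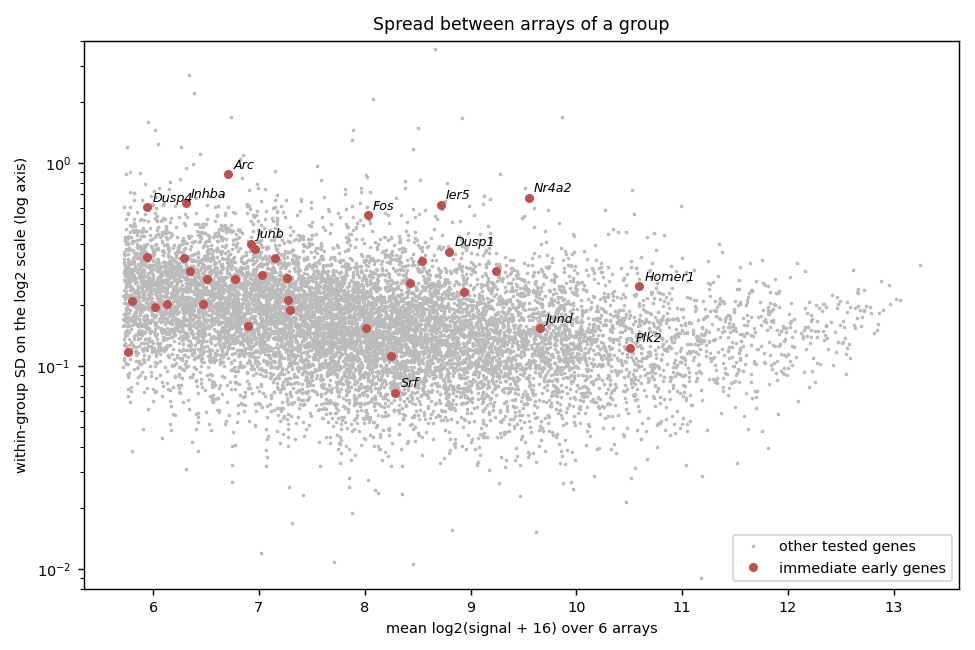
Within-group SD on the log2 scale (log axis) against mean log2(signal + 16) for the 11053 tested genes, with the 35 immediate early genes in red. Arc, Nr4a2, Inhba, Ier5, Dusp4 and Fos stand at the upper edge, and Srf near the lower one.

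Most members stood highest in 1 of 2 arrays. Double knockout replicate 3 was the highest array for 12 of the 35 (34.3%), against 14.3% of all tested genes, and wild type replicate 2 for another 12 (34.3% against 17.2%). Double knockout replicate 1 was highest for Jun alone (2.86% against 12.7%). The set that peaked in double knockout replicate 3 was Fos, Junb, Nr4a1, Klf2, Klf4, Srf, Arc, Dusp1, Dusp6, Ier2, Tiparp and Ccn1. The set that peaked in wild type replicate 2 was Fosl2, Klf6, Klf10, Crem, Nfil3, Homer1, Dusp4, Dusp14, Ier3, Ier5, Ptgs2 and Inhba. The median deviation of the 35 members from their wild type mean was -0.10, -0.13 and 0.18 on the log2 scale under the double knockout label and -0.056, 0.092 and 0.036 in wild type. Over all tested genes it stayed between -0.022 and 0.015. The arrays were singled out after their values were seen, the sets have no test, and the cause of their order was not tested.

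Of the Egr genes and their partners, Egr2 read 49.6, 43.7 and 145 in the arrays labelled double knockout, against 13.1, 50.2 and 54.0 in wild type, and Egr4 read 60.5, 113 and 148 in the arrays labelled double knockout, against 88.9, 71.6 and 97.8 in wild type. Both were highest in double knockout replicate 3, as was Nab2, whereas Egr3 peaked in wild type replicate 2.

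**Figure D5:**
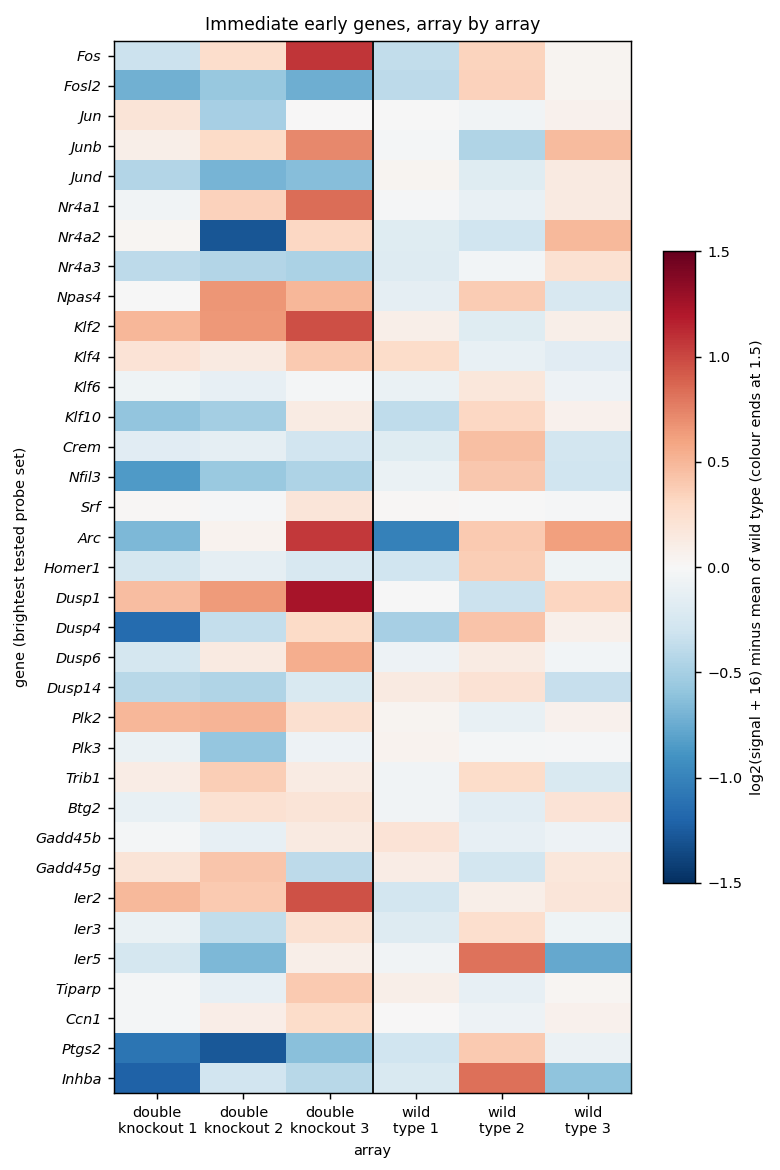
Deviation of each tested immediate early gene (rows, by role) from its wild type mean in each array (columns), on the log2(signal + 16) scale with red above and blue below. Dusp1, Fos, Arc, Klf2, Ier2 and Nr4a1 are reddest in double knockout replicate 3, Ier5 and Inhba in wild type replicate 2, and Nr4a2 is darkest blue in double knockout replicate 2.

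Around the members, 3 further lists of the activity response were examined, each chosen by hand with earlier results of these data known. Of 21 genes of upstream signalling 17 were tested, and 1 fell and 0 rose. Of all tested probe sets 0.591% fell and 0.426% rose at the same threshold. Camk4, a calcium-dependent kinase of the nucleus that activates CREB, read 715, 899 and 708 under the double knockout label and 1362, 1482 and 1482 in wild type, and every array labelled double knockout stood below every wild type array. The log2 change was -0.89 (SE 0.11, limma adjusted p = 0.00929). In the mouse genome Camk4 lies 1.9 Mb from Egr1, whose locus was, by the label, targeted, and effects of that neighbourhood and of a change in Egr1 or Egr3 cannot be told apart here. It no longer passed once double knockout replicate 3 was left out (-0.83, adjusted p = 0.061), nor in 3 other alternatives. The other 16 genes did not pass, and the median of the list was -0.027.

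Of 21 other rapid response genes 18 were tested, and 1 rose and 0 fell, where 0.426% of all tested probe sets rose and 0.591% fell. Bhlhe40, a repressor of the circadian clock that is also induced by activity, read 547, 733 and 875 in the arrays labelled double knockout, against 282, 432 and 379 in wild type. The groups did not overlap (log2 0.94, SE 0.19, limma adjusted p = 0.0497). The call was lost in 11 of 18 alternatives, 4 of them fits without 1 array (double knockout replicate 2 or 3, wild type replicate 1 or 3), with adjusted p = 0.0125 to 0.322 over all of them. The median of the list was 0.11.

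All 12 late activity-induced genes were tested, and none passed. Of these 10 were lower and the median was -0.18. The neurotrophin Bdnf read 98.6, 118 and 152 under the double knockout label and 214, 358 and 224 in wild type, without overlap (log2 -1.001, 95% interval -1.46 to -0.54, limma adjusted p = 0.0549). Tac1, the precursor of substance P, read 289.9, 288 and 244 in the arrays labelled double knockout, against 325, 419 and 406 in wild type (log2 -0.46, limma adjusted p = 0.128). Bdnf, like Homer1 and Ptgs2, was highest in wild type replicate 2.

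Markers of cortical neurons were present in all 6 arrays. Of 5 markers tested from the excitatory list none passed, 3 being higher and 2 lower. They summed to 11898 to 13353 under the double knockout label and 10341 to 11409 in wild type. Snap25, the brightest, is not confined to excitatory neurons, so the sums do not describe these alone. It read 7302, 7466 and 7100 under the double knockout label and 5044, 6639 and 7128 in wild type, with overlap. Neurod6, a transcription factor of excitatory neurons, read 317, 299.6 and 342 under the double knockout label and 436, 524 and 369 in wild type, without overlap. Slc17a7, their vesicular glutamate transporter, lay the other way, at 1494, 1775 and 1709 under the double knockout label and 870.4, 1775 and 789 in wild type, where replicate 2 stood with the arrays labelled double knockout. Interneuron markers were higher in 2 of 6 and lower in 4, with none passing and sums of 5172 to 6031 under the double knockout label and 5715 to 6516 in wild type.

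Glial lists differed in direction. Microglia markers were lower in 6 of 6, where 48.5% of all tested genes were lower, and none passed. They summed to 1983 to 2480 under the double knockout label and 2576 to 3007 in wild type. Csf1r is the brightest in this sum and overlapped, at 1513, 1319 and 1381 under the double knockout label and 1750, 1540 and 1497 in wild type. The groups did not overlap for 3 of the 6, all lower, as for 11.1% of all tested genes. Oligodendrocyte markers were higher in 4 of 5, summing to 18283 to 20883 under the double knockout label and 15252 to 17672 in wild type, with none passing. Mbp is the brightest in this sum. The groups did not overlap for 2 of the 5 genes, Mbp and Cnp, where 23.3% of all tested genes did not overlap. For Mbp the gap was very narrow, between 9228 in wild type replicate 3 and 9231 in double knockout replicate 3. Of 6 astrocyte markers 2 were higher and 4 lower, with sums of 10506 to 11117 under the double knockout label and 10089 to 11853 in wild type. Aldoc and Gja1 are the brightest in these sums. Without overlap 3 were lower (Aqp4, Gfap and S100b) and 1 higher (Slc1a3), beside 11.1% and 12.2% of all tested genes. Gfap read 553, 193 and 596 under the double knockout label and 775, 609 and 806 in wild type. S100b read 570, 447 and 581 under the double knockout label and 769, 799 and 738 in wild type. Aqp4, the water channel of astrocyte endfeet, fell (log2 -0.96, limma adjusted p = 0.0139). The call was lost in 5 of 18 alternatives, among them the fits without double knockout replicate 3 (limma adjusted p = 0.0674) and without wild type replicate 1 (limma adjusted p = 0.057). The glutamate transporter Slc1a3 of the same list read 1220.2, 1408 and 1491 under the double knockout label and 1050.2, 1071 and 1014 in wild type, without overlap (log2 0.38, limma adjusted p = 0.118).

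The 4 tested choroid plexus markers summed to 123 to 4832 under the double knockout label and 185 to 10983 in wild type, with Ttr at 4697 in double knockout replicate 1 and 10347 in wild type replicate 3. The 3 tested striatum markers summed to 437 to 553 under the double knockout label and 435 to 581 in wild type. Alas2, the 1 tested blood marker, read 26.8 to 74.5 under the double knockout label and 58.1 to 67.1 in wild type. None of these markers passed. The part of cell makeup in the members' levels was not tested.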

How the data were processed

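The deposited table holds 1 linear intensity signal per probe set and array, summarised and scaled by the authors. After trimming 2% at each end, every array's mean lay at 150.0. Software, settings and build are not given in the sources used here. Of 45037 probe sets besides 64 controls, 34945 had 1 gene symbol in the platform's annotation, 932 several and 9160 none. Only those with 1 symbol were named. Signals under 1 were set to 1 (4.35% of values) before log2(signal + 16).

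Probe sets above the median of the mean log2 signal entered a linear model in limma 3.58.1 (R 4.3.3, group only, eBayes with an intensity trend, Benjamini-Hochberg over all tested probe sets). The step was also run on simulated data drawn independently for each probe set, which cannot speak for effects that genes of an array share. Wild type was subtracted from the double knockout label in every difference. Precision is limited by there being 3 arrays a group.

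The members, lists, motifs and tests were chosen with earlier results of these data known. Values were given for the 12 members with the smallest p, the 6 with the largest difference, the 6 with the widest spread and 7 fixed ones, 21 in all. The labels give the groups only replicate numbers in common, so the comparison is unpaired. No p was adjusted over the members alone. Figures used matplotlib 3.10.9.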

Additional observations from a re-analysis of the deposited data

How the results depend on the processing

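The 23 member values followed were those of 21 genes and of a second probe set each of Homer1 and Ptgs2. Over 18 alternatives they gave 397 values, since a probe set below the filter in an alternative gave none. Of these values 380 kept their direction and stayed on the same side of the threshold, 8 passed it and 9 turned. The dimmer Ptgs2 probe set had values in 12 alternatives. It had none in the fits without 1 wild type array alone or with a pseudocount of 1. The count of 0 called members became 1 (Jund) with a pseudocount of 64, with the filter at the 75% quantile and with array weights, 2 (Jund and the dimmer Ptgs2 probe set) with a robust trend and 3 with a threshold of 0.1. Leaving out 1 array gave 0 to 1, the 1 being Jund without wild type replicate 2. The count of 229 probe sets called became 10 with no filter, 131 with no intensity trend, 586 at a threshold of 0.1 and 9 with wild type replicate 1 and double knockout replicate 2 both left out, and ran from 33 (without double knockout replicate 3) to 300 (without wild type replicate 2) with 1 array left out. Arc turned to -0.31 with those 2 arrays left out and Nr4a2 to 0.072. With wild type replicate 2 and double knockout replicate 3 both left out, an alternative chosen after seeing the data, 117 probe sets were called, and Arc turned to -0.12 and Junb to -0.040. With 1 array left out, values that turned ran from -0.36 to 0.56 for Arc, -0.63 to 0.17 for Nr4a2, -0.67 to 0.13 for Ier5 and -0.025 to 0.67 for Fos. With the replicate number as a block, the replicate block, 2 members were called (Dusp1, log2 0.78, adjusted p = 0.0358, and the dimmer Ptgs2 probe set, log2 -1.23, adjusted p = 0.0358), and 229 probe sets became 182. Deviations of same-numbered arrays correlated at -0.15, 0.0013 and -0.10. Deviations from the mean of a group offset one another, so these values cannot show whether same-numbered arrays were handled together. Dim signals such as those of Ptgs2 and Arc leave the size of a difference open to the pseudocount.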
